A study of Schizosaccharomyces pombe with 56 samples.

Results

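A set of 8 genes of meiosis was followed into quiescence in fission yeast, Schizosaccharomyces pombe: mei4, ssm4, rec8, mcp7, mug8, num1, spo5 and crs1. They were listed as carrying small patches of histone H3 dimethylated at lysine 9 (H3K9me2) in growing cells. For most of them the data used here show no clear patch at that stage, as given below. The genes are 8 of the 12606 nuclear genes in the annotation. Each was tied to the regions of the authors' deposited table that overlap its annotated body by at least 1 bp, which gave 7 of the 2192 regions, 1 for each gene except mcp7. The cells were wild type, strain 975 h+, after 24 h in medium lacking nitrogen (24 h). They were set against the same strain sampled before nitrogen was withdrawn (0 h). The series holds 6 H3K9me2 libraries of each, and how many of them entered the deposited means is not stated. The medium was EMM supplemented with adenine, histidine, leucine, lysine and uracil, and for starvation EMM -N, both at the same temperature. Cultures of a single mating type have no partner to mate with, so these cells enter quiescence and do not go on to meiosis. The series of 56 samples also holds clr4D and ago1D strains, 1 h samples, H3K9me3 and inputs, which were not analysed here.

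H3K9me2 is written by the methyltransferase Clr4 and marks silent heterochromatin, mostly at centromeres, telomeres and the mating-type locus. In growing cells, transcripts of many meiotic genes are destroyed as they are made. The YTH-family RNA-binding protein Mmi1 recognises the short motif UNAAAC, repeated within their transcripts, and hands them to the nuclear exosome, and at a subset of these genes Clr4 also places a small H3K9me2 island over the gene body. The genes described here act at different steps of meiosis. Mei4 is the forkhead transcription factor of the middle genes, Rec8 the meiotic cohesin subunit, Mcp7 the Mnd1 protein of recombination, Ssm4 a dynactin component and Num1 the cortical anchor of dynein, both of which serve nuclear movement in prophase. Crs1 is a meiotic cyclin, Spo5 an RNA-binding protein needed for the second division and spore formation, and Mug8 a protein of unknown function.

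The stretches richest in the Mmi1 motif are shown for rec8, the gene with a called change, for mei4, ssm4 and num1, whose windows held more motifs than that of rec8, and for mcp7, which had no region. Each is the 120-base window within one coding exon that holds most copies of TNAAAC, the DNA form of the motif, the most 5' one where several tie, read 5' to 3' on the coding strand from RefSeq's ASM294v3. Capitals mark the motif.
rec8, chromosome II, 2570051 to 2570170, plus strand: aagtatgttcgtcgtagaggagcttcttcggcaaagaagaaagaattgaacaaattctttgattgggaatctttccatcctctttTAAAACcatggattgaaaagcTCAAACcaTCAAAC
mei4, chromosome II, 1473851 to 1473970, plus strand: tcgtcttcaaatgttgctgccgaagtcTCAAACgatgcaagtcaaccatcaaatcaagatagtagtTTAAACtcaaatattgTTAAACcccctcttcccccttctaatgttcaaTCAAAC
ssm4, chromosome I, 4535156 to 4535275, minus strand: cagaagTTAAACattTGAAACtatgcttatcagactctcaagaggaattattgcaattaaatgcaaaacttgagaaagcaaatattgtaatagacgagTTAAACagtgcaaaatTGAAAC
num1, chromosome II, 899593 to 899712, plus strand: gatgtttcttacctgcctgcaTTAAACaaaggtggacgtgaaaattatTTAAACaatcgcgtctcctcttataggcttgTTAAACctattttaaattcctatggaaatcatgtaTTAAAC
mcp7, chromosome I, 578953 to 579072, plus strand: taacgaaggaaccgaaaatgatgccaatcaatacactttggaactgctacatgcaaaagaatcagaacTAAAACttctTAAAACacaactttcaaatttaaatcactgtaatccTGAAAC

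The windows of mei4, ssm4 and num1 held 4 motifs, and so did that of mug8. At least 4 in the densest window were found in 0.352% of the 5113 protein-coding genes. Those of rec8, mcp7, spo5 and crs1 held 3, a number reached or passed in 3.23% of genes. Over windows of the same length laid end to end along all coding exons, 17.5% of 54739 held the motif at least once.

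The motif was dense along the coding sequences as a whole, and each of the 8 genes held more of it on the coding strand than on the other. It occurred 7.90 times per kb in mcp7, 7.75 in crs1, 6.52 in rec8, 6.46 in ssm4, 6.44 in mei4, 6.19 in num1, 6.01 in mug8 and 3.52 in spo5, against a median of 1.52 per kb over all protein-coding genes. For mcp7 0.567% of genes were as dense or denser, for mug8 1.62% and for spo5 8.64%. On the opposite strand the members ran from 0.462 per kb in mug8 to 4.43 in crs1, against a median of 1.49 per kb over all genes. The letters alone do not show where Mmi1 binds. These densities describe the sequence and come from no measurement on the cells.

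**Figure D1:**
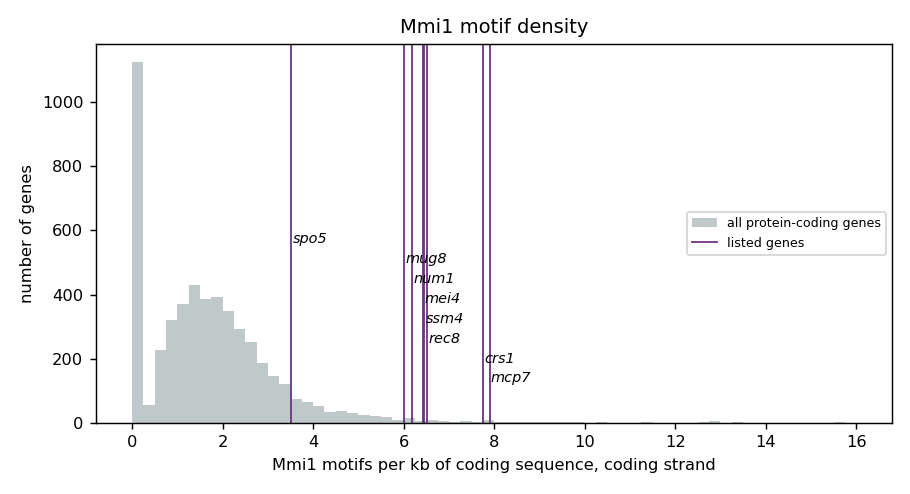
Number of protein-coding genes by Mmi1 motifs (TNAAAC) per kb of coding sequence on the coding strand; grey bars are all 5113 genes and lines are the 8 listed genes. Of the 8 lines, 7 lie above 6 motifs per kb and spo5 lies at 3.52, all to the right of the bulk of genes, whose median is 1.52.

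None of the H3K9me2 regions covered an annotated gene start, and 3 of the 7 ran past the gene's end. They began 339 bp after the start in mei4, 342 bp in crs1, 389 bp in mug8, 861 bp in rec8, 892 bp in ssm4, 972 bp in spo5 and 1085 bp in num1, counted in the direction of transcription. The regions of mei4, rec8, mug8 and num1 lay wholly within the gene. That of ssm4 (chromosome I, 4534190 to 4535844, table coordinates on build ASM294v2) ran past the gene's end into but1, and that of spo5 (chromosome II, 2537122 to 2538940) into the convergent gene pcf1, which encodes a subunit of the chromatin assembly factor CAF-1. The crs1 region (chromosome II, 3449648 to 3453174) was mainly that of its neighbour: 852 of its 3527 bp overlapped crs1 and 3119 bp overlapped ade9, a gene of one-carbon metabolism. A level given for crs1 is therefore a level of the whole region. Non-coding RNA genes on the opposite strand also lay under the regions, SPOM_SPNCRNA.1397 under all 1685 bp of the num1 region and SPOM_SPNCRNA.5202 under 1166 bp of that of mei4.

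Motifs were denser under the regions than in the rest of the coding sequence. The windows with most motifs lay wholly inside the region in 6 of the 7 genes with one. In rec8 they tied, 3 inside the region, 97 across its edge and 53 outside it, so the window shown for rec8 is one of several. Of the 78 motifs in their coding exons, 55 fell in the 7677 coding bases under a region, or 7.16 per kb, and 23 in the 5253 coding bases outside, or 4.38 per kb. In mei4 10 of 10 motifs fell in the region, in ssm4 11 of 13 and in rec8 3 of 11. The density was higher inside than outside in each of the 7 genes. These counts are a description, with no test. They include the ssm4 region, which had no measurable H3K9me2 at either time, and the crs1 region, which lay mainly over ade9.

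**Figure D2:**
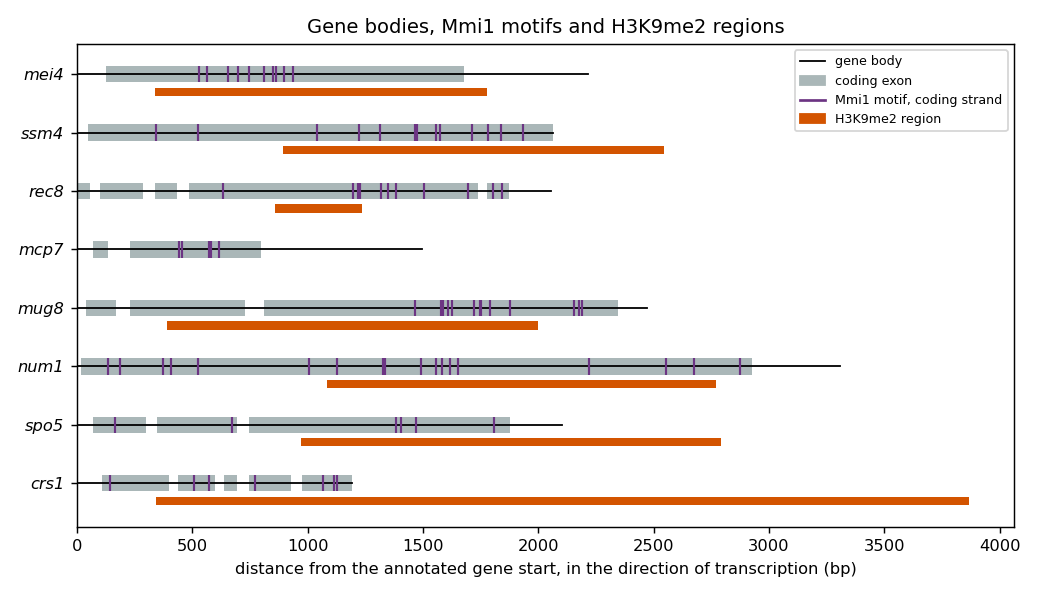
Gene bodies (lines), coding exons (grey), Mmi1 motifs on the coding strand (purple) and H3K9me2 regions of the deposited table (orange), by distance in bp from the annotated gene start. The regions begin between 339 and 1085 bp after the gene start, those of ssm4, spo5 and crs1 run past the gene's end, and mcp7 has none.

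Across the 7 genes with a region, the H3K9me2 level of rec8 fell in quiescence, and for no other was a change called. At a false discovery rate (FDR) of 0.05 in the authors' deposited table, 1 of the 7 regions was lower at 24 h and 0 were higher. Over all 2192 regions, 0.456% were lower and 20.7% higher by the same rule. Only 4 of the 7, those of ssm4, rec8, mug8 and num1, had a p below 1, and among the 1385 such regions 0.722% were lower and 32.7% higher. The levels were low at both times. In the authors' deposited table the members' median was 3.33 normalised reads per region at 24 h and 1.60 at 0 h, against 15.1 and 0.770 over all regions, and the highest region of all had 24957 at 24 h and 48464 at 0 h. A normalised read is a read scaled by the authors to make libraries comparable, and each value is the mean of a group. The table gives no spread between libraries. With ChIP on whole cultures, fewer marked cells and less mark per cell cannot be told apart.

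**Figure D3:**
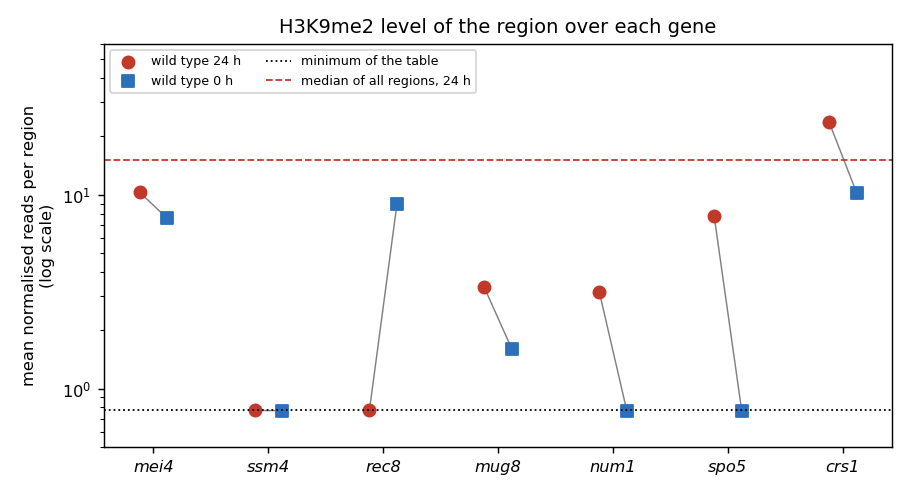
Mean normalised reads of the region over each gene in wild type at 24 h (red circles) and 0 h (blue squares), on a log axis, in the authors' deposited table. The rec8 region stands at the minimum at 24 h and at 8.98 at 0 h, ssm4 stands at the minimum at both times, and crs1 alone passes the 24 h median of all regions, 15.1.

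The rec8 region spanned 374 bp of a coding exon of the gene (chromosome II, 2569799 to 2570172), the fourth of its 5 coding exons. In the authors' deposited table it stood at the minimum of 0.771 normalised reads at 24 h and at 8.98 at 0 h. Its log2 change was -3.54 (24 h minus 0 h; the authors' p = 0.00620, FDR = 0.0214 in the deposited table). The minimum was taken as 1 read in each library, so a fold is given against 3 reads per library, 2.31 normalised reads. By that bound the region was at least 3.88-fold lower at 24 h. At the minimum stood 1154 of the 2192 regions at 0 h and 151 at 24 h. Whether inputs were subtracted is not given. If they were, the minimum may not be a count of reads, and this bound and those below would not hold for the reads themselves. It was the narrowest of the 10 decreased regions, whose median width was 1067 bp, and among the narrowest 2.60% of all regions. Per kb of region its level was 24.0 at 0 h, and 98.5% of all regions were lower per kb. That rank owes much to the narrow width. In reads per region 75.8% were lower at 0 h, and rec8 ranked 7 from the highest among the 10 decreased regions. The 2.06 per kb at 24 h is only the minimum divided by the width. A long non-coding RNA gene on the opposite strand, SPOM_SPNCRNA.5714, spans the same 374 bp, and ChIP does not tell the strands apart.

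The regions over mei4 and crs1, the latter lying mainly over ade9, stood above the minimum at both times. In the authors' deposited table the mei4 region (chromosome II, 1473407 to 1474847) had 10.3 normalised reads at 24 h and 7.56 at 0 h, a ratio of 1.36. The crs1 region had 23.8 at 24 h and 10.3 at 0 h in the same table, a ratio of 2.32. Per kb the mei4 region had 7.15 normalised reads at 24 h and 5.25 at 0 h, while crs1 had 6.74 at 24 h and 2.91 at 0 h. Over all regions the medians were 10.5 per kb at 24 h and 1.23 at 0 h, so at 24 h both lay below the median region and at 0 h above it. The deposited table lists both with a p of 1 and an FDR of 1, outside the 1385 regions over which the FDR was adjusted, so it holds no usable test of either change.

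Spo5, num1 and mug8 had more signal at 24 h than at 0 h, and none was called. For each of them the recovered 24 h signal came from 1 library alone, as described below. In the authors' deposited table the spo5 region had 7.80 normalised reads at 24 h and the minimum, 0.770, at 0 h. It was at least 3.38-fold higher at 24 h by the bound above, and its p is listed as 1. The num1 region (chromosome II, 899141 to 900825) had 3.17 normalised reads at 24 h and the minimum at 0 h in the deposited table, at least 1.37-fold higher (FDR = 0.177). That of mug8 (chromosome I, 2445631 to 2447242) had 3.33 at 24 h and 1.60 at 0 h in the deposited table, a log2 change of 1.06 (FDR = 0.587). The levels of num1 and mug8 at 24 h lay below 5.74 normalised reads, the lowest 24 h level of any of the 453 regions called higher.

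Ssm4 and mcp7 showed no measurable H3K9me2 in these tables. The ssm4 region stood at the minimum in both groups, 0.771 at 24 h and 0.770 at 0 h in the authors' deposited table (FDR = 0.988), so no fold can be given. No region overlapped mcp7, and the nearest lay 1935 bp away, over the sterol demethylase gene erg11. A region at the minimum, or no region, limits what these libraries could detect and does not show that the mark was absent. Regions above the minimum lay over 5 of the 8 genes at 24 h and over 4 at 0 h, mei4, rec8, mug8 and crs1. Of these 4, mug8 was below 2.31 normalised reads at 0 h and the crs1 region lay mainly over ade9, so for most of the list the tables show no clear island in growing cells.

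**Figure D4:**
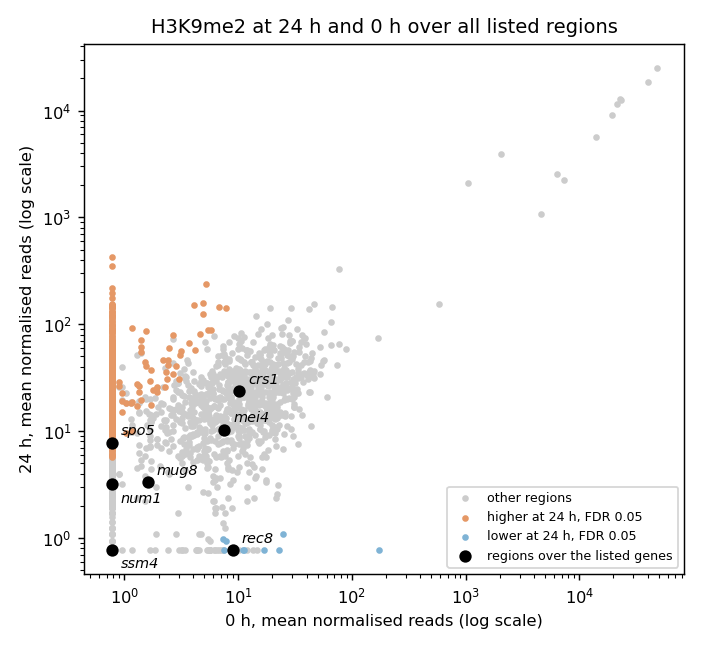
Mean normalised reads at 24 h (vertical) and 0 h (horizontal) of all 2192 regions, both on log axes, with the regions over the listed genes in black. The genes lie in the low part of the cloud, rec8 stands among the 10 regions called lower (blue), and none of the genes is among the 453 called higher (orange).

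The reads behind these means came from few libraries. The group means rise in steps of fixed size, each the weight of 1 read in 1 library, and splitting each mean into whole steps returned the reads above the minimum in 3 libraries at 24 h and 2 at 0 h. This held for 2173 of 2192 means at 24 h and 2177 at 0 h, within a relative tolerance of 3e-14. The tables do not say which replicate each of these libraries is, so they are numbered here. The steps of these libraries sum to 0.509 of the minimum of 0.771 at 24 h and to 0.317 of the minimum of 0.770 at 0 h. If the minimum is 1 read per library, further libraries of each group stood at the minimum in every solved region.

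Rec8 was the 1 member with more than 1 read in both of these 0 h libraries. Its region had 0, 0 and 0 reads above the minimum in the 3 libraries at 24 h, and 17 and 32 in the 2 libraries at 0 h. If the minimum is 1 read per library, further 0 h libraries stood at the minimum, level with those at 24 h. The groups would then overlap at the minimum, and the signal of rec8 at 0 h would come from part of its libraries. The 49 reads at 0 h, summed over 2 libraries of unlike weight, have an exact Poisson 95% interval of 36.3 to 64.8. It covers counting error of these reads only and is no interval for the group mean. If inputs were subtracted, which is not stated, it would not cover all of the counting error. With the second 0 h library set to the minimum, the log2 change of rec8 was -1.93, and with the first set to it, -3.14. Of the 10 decreased regions 9 could be solved, rec8 among them, and all 9 had reads in both 0 h libraries. Over all solved regions above the minimum at 0 h, 54.3% did. The call itself depends on signal across libraries, so this is no separate support for rec8.

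At 24 h the members' signal came almost wholly from 1 library. Mei4 had 56, 0 and 4 reads above the minimum in the 3 libraries at 24 h, and 53 and 0 in the 2 at 0 h. Crs1 had 144, 0 and 0 at 24 h, and 74 and 0 at 0 h. Both genes were thus high in 1 library of each group, with the groups overlapping at the low end. Spo5 had 44, 0 and 0 reads at 24 h and none at 0 h, and num1 had 15, 0 and 0 at 24 h and none at 0 h. Mug8 had 16, 0 and 0 reads at 24 h, and 5 and 1 at 0 h. In all, 275 of the 279 reads recovered over the members at 24 h, and 149 of the 182 at 0 h, came from the first library of the group.

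**Figure D5:**
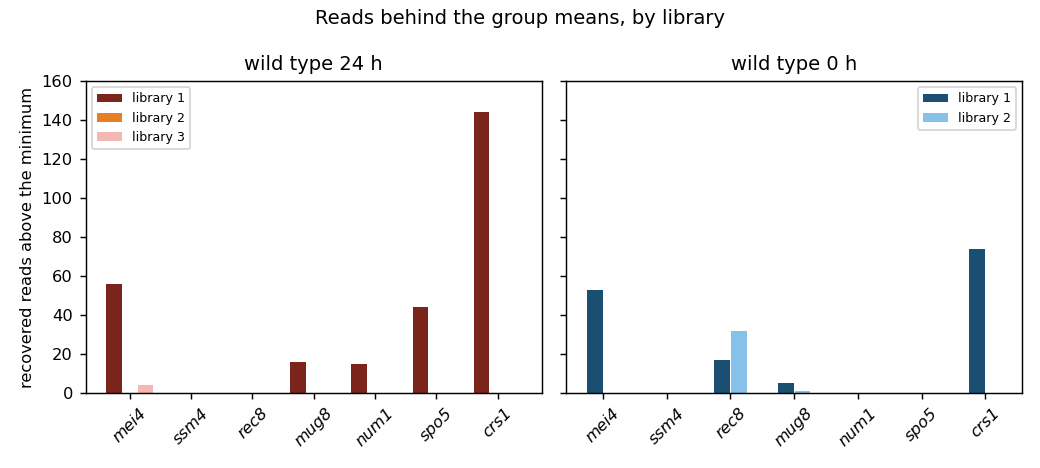
Reads above the minimum recovered from the group means, for each gene with a region, in the 3 libraries with signal at 24 h (left) and the 2 at 0 h (right). The first 24 h library holds 275 of 279 reads, the second holds none, and rec8 alone has more than 1 read in both 0 h libraries.

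The first 24 h library was the one with most reads elsewhere too, with 77.2% of the reads recovered at 24 h over the regions solved. Of the 2022 solved regions above the minimum at 24 h, 47.2% had reads in that library alone, which was so for 4 of the 5 members above it. The second 24 h library had reads in 50.5% of those 2022 regions and in 439 of the 450 solved regions called higher, and in 0 of the members' regions. With the first 24 h library set to the minimum, mei4, mug8 and crs1 turned to log2 changes of -2.47, -1.05 and -3.73, spo5 and num1 stood at the minimum, and 1 member, mei4, was left above it at 24 h. The part of this library's depth in the members' higher values at 24 h was not tested. Regions listed with a p of 1 mostly had signal in 1 library or none of each group, 81.4% of those solved, against 18.7% of the regions with a test.

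The sign of the uncalled changes of mei4, mug8 and crs1, and of the lower bound for num1, depends on the scaling chosen. A scaling moves all regions by the same amount. All tested regions together had a median log2 change of 1.72, and all 2192 listed regions one of 2.43. The 7 member regions, of which 4 were tested, had one of 1.06. Relative to the shift of tested regions, the log2 changes of mei4, mug8 and crs1 were -1.27, -0.66 and -0.51. The lower bound was 0.46 for num1 and 1.76 for spo5 as deposited, and -1.26 for num1 and 0.035 for spo5 relative to that shift.

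The regions beside these genes were listed as well. Within 5 kb of a member there were 17 further regions, of which 2 were called higher and 1 lower in the authors' deposited table. Over all 2192 regions 20.7% were called higher and 0.456% lower, so most regions anywhere were not called. A region 602 bp downstream of mei4, over the actin gene act1, had 59.8 normalised reads at 24 h and the minimum at 0 h (FDR = 0.00166 in the deposited table), from 248 and 97 reads in the first and second 24 h libraries. A region 3232 bp downstream of ssm4, over SPOM_SPAC27D7.11C, had 24.6 normalised reads at 24 h and the minimum at 0 h (FDR = 0.00495 in the deposited table). The decreased one lay 3339 bp downstream of spo5, over psm1, which encodes a cohesin subunit that pairs with Rec8 in meiosis. It had 1.09 normalised reads at 24 h and 24.8 at 0 h in the deposited table (FDR = 0.0101), with 21 and 113 reads in the 2 libraries at 0 h. Whether the members differ from these neighbours was not tested.

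Other genes of meiosis were examined from lists chosen from textbook knowledge, with the members left out. Over all protein-coding genes, 54.8% lay under a region, 32.9% under a tested one, 10.5% under a region called higher and 0.196% under one called lower. Of 14 genes of the machinery that removes meiotic transcripts, 10 lay under a region, 6 under a tested one and 1 under a region called higher. That gene was mei2, whose RNA-binding product sequesters Mmi1 when meiosis begins. In the authors' deposited table its region had 66.7 normalised reads at 24 h and the minimum at 0 h, at least 28.9-fold higher (FDR = 0.00139). The region over mmi1 itself had 35.4 normalised reads at 24 h and 12.4 at 0 h in the deposited table (FDR = 0.592). Rmn1 lay under a region with 27.6 normalised reads at 24 h and the minimum at 0 h, listed with a p of 1 in the deposited table. That over red1, whose product links Mmi1 to the exosome, had 14.2 at 24 h and 19.7 at 0 h (FDR = 0.970), and rrp6, encoding the nuclear exosome nuclease, had 35.6 at 24 h and 15.3 at 0 h with a p of 1, again in the deposited table.

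Among 8 genes that control entry into meiosis, 4 lay under a region and mei2 was the 1 called. The authors' deposited table gives the region over ste11, the transcription factor that starts sexual differentiation, 15.1 normalised reads at 24 h, the minimum at 0 h and a p of 1. The region over pat1, the kinase that blocks meiosis in growing cells, had 27.9 at 24 h and 13.9 at 0 h in the deposited table (FDR = 0.766). Ste6 lay under a region with 1.09 normalised reads at 24 h and 4.74 at 0 h, listed there with a p of 1. Of 19 recombination genes, 3 lay under a region and 1 was called higher. This was rec15, which acts in the formation of meiotic DNA breaks, with 18.4 normalised reads at 24 h and the minimum at 0 h in the deposited table, at least 7.96-fold higher (FDR = 0.00794). The dbl4 region had 7.64 normalised reads at 24 h and 33.4 at 0 h in the deposited table (FDR = 0.361). That of rec6, another gene of break formation, had 4.64 at 24 h and the minimum at 0 h in the deposited table (FDR = 0.0907).

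For meiotic divisions 5 of 12 genes, and for spore formation 8 of 15, lay under a region, with 0 called in either list. The highest 24 h level in the list of division genes was that of zip1, with 16.0 normalised reads at 24 h and 8.11 at 0 h in the deposited table (FDR = 0.726). Zip1 is counted among the 5, although it encodes a bZIP transcription factor and is no gene of the meiotic divisions. Its reads numbered 51, 27 and 11 in the 3 libraries at 24 h, and 22 and 24 in the 2 at 0 h. The mfr1 region had 12.1 normalised reads at 24 h and the minimum at 0 h in the deposited table, with a p of 1 and reads in the first 24 h library alone. The dhc1 region stood at the minimum at both times. Moa1, a meiotic kinetochore protein that works with Rec8, lay under a region to which the authors' deposited table gives the minimum at 24 h, 6.79 normalised reads at 0 h and a p of 1. Its reads stood in 1 library, 47 in the first 0 h library and 0 in the second. The region over spo6, a gene of the second division, had 13.7 normalised reads at 24 h and 25.9 at 0 h in the deposited table (FDR = 0.812). In the spore list, the highest 24 h levels were 91.3 normalised reads over spo2 and 23.0 over mug27, against 23.8 and the minimum at 0 h in the deposited table, and neither was called (FDR = 0.499 for spo2, p of 1 for mug27). In the deposited table spo15 had 20.7 normalised reads at 24 h and the minimum at 0 h. Likewise spo3 had 18.8 at 24 h and 1.15 at 0 h, and spn6 had 5.88 at 24 h and the minimum at 0 h, all 3 listed with a p of 1 in the deposited table.

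Of 119 further genes named mug, meu or mcp with a number, mostly named for rising or being found in meiosis, 46 lay under a region, 5 under one called higher and 0 under one called lower. The 5 were mug108, mug37, meu18, mug64 and mcp60, the last of which encodes a mitochondrial chaperonin and is no meiotic gene. Their bounds in the deposited table ran from at least 2.53-fold for mug64 to at least 31.8-fold for mcp60, and all 5 stood at the minimum at 0 h. The shares of this list were below those of all protein-coding genes. The median number of Mmi1 motifs was 2.89 per kb of coding sequence in the recombination genes, 2.80 in the division genes, 2.69 in the entry genes, 2.11 in the spore genes, 1.80 in the mug, meu and mcp genes and 1.09 in the RNA elimination genes. The difference from the members was not tested.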

How the data were processed

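Chromatin was immunoprecipitated and sequenced from cross-linked cells, per the labels' protocols. The submitters' processing notes name DESeq2, DiffBind 1.16.3, MACS2 2.1 and Bowtie2 2.2.7, and the build ASM294v2, without role or order. For each region the deposited tables hold, per the file headers, each group's mean normalised reads as log2 and the log2 fold, 0 h minus 24 h, whose sign was turned here. The authors also deposited a p-value and FDR per region. A sheet name gives the digits 1, 3, 4, 5 and 6, and whether these are the replicates used is not stated. Whether inputs were subtracted is not given in the sources used here.

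With only group means at hand, no test was run here and the authors' own comparison was described. The members and lists were chosen with earlier results of these data known. All 8 members are named; from each list were named the genes at an FDR of 0.05 and those highest at 24 h, at most 5. Symbols, gene bodies and sequences came from RefSeq's ASM294v3, whose 3 nuclear chromosome lengths equal the last region ends of the table. The motif was searched as TNAAAC on both strands, overlaps allowed.

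Reads per library were recovered from the group means up to 300 normalised reads and checked on simulated data (Python 3.11.15, numpy 2.4.6, pandas 2.3.3). Depth per library is not in the tables, and at the minimum it limits what can be seen. Whether replicates were separate cultures is not stated, so the authors' p-values measure the spread between libraries, which may be technical.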

Additional observations from a re-analysis of the deposited data

How the results depend on the processing

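The count of 0 members called higher did not change with an FDR of 0.01, with at least 50% of a region required inside the gene, or with gene bodies extended by 500 bp. With the 50% overlap crs1 lost its region, leaving 6 members with one. The 1 member called lower, rec8, became 0 at an FDR of 0.01. Scaling to a median change of 0 over tested regions, a log2 shift of -1.72, gave -1.27 for mei4, -0.66 for mug8 and -0.51 for crs1, by construction the deposited changes plus the shift. For ssm4, at the minimum in both groups, the -1.72 is the shift itself and no change. Scaling to the same total, a shift of 0.54, turned the sign of none. Leaving out the reads of 1 library at a time, an alternative added for the counts after seeing the data, gave log2 changes of -2.47 to 3.74 for mei4, -1.05 to 1.80 for mug8 and -3.73 to 4.95 for crs1. The members above the minimum numbered 1 to 5 at 24 h and 2 to 4 at 0 h. The log2 change of rec8 was -2.49 with 1 normalised read added to both means and -1.28 with 5 added. Of 76 recomputed member values 64 moved by less than counting error or not at all, 5 moved by more and 7 reversed. Some of the 64 could not move, as with the second 24 h library, which had no reads over the members. They also include num1 without the first 24 h library, from 2.04 to 0.0033, within a counting error of 2.92. The 7 include ssm4, where the reversal is the shift itself. The authors' FDR could not be recomputed per library. No paired analysis was possible because the tables hold 1 mean per group and no replicate numbers.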
